A study of Homo sapiens with 18 samples.

Results

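The DNA replication genes measured here were 36 genes of the replication machinery and of S phase entry, listed by function and looked up among 58037 gene IDs of a bulk RNA sequencing count table. Each of the 36 matched 1 gene ID, and all 36 had enough counts to be tested in every comparison. RNA was sequenced from 3 established human acute myeloid leukemia (AML) cell lines after 16 h of culture, in 18 libraries of 8 groups. The study asked how a Menin inhibitor, alone or with a BET protein inhibitor, changes gene expression in AML cells that depend on MLL (KMT2A). MOLM13 cells, which carry the MLL-AF9 fusion, received 500 nM VTP50469 together with 500 nM OTX015, 500 nM OTX015, 500 nM VTP50469, or neither, with 2 libraries each. MV4-11 cells, which carry an MLL rearrangement, received 1000 nM VTP50469 or neither, with 2 libraries each. OCI-AML3 cells, which carry mutant NPM1 and no MLL fusion, received 500 nM VTP50469 or neither, with 3 libraries each. VTP50469, named SNDX-50469 in the study, blocks the binding of Menin to MLL, and OTX015 displaces BET proteins from acetylated chromatin. RPMI medium was used for MOLM13 and OCI-AML3 and IMDM for MV4-11, each with 20% serum, so line and medium cannot be told apart where MV4-11 is set against another line. Each line stands as a single cell model, so comparisons between lines are of these lines only.

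DNA is copied once per cell cycle by a machine that is put together in steps. The origin recognition complex (ORC) marks start sites, and CDC6 and CDT1 load the ring-shaped helicase made of MCM2 to MCM7 on them. At the start of S phase MCM10, CDC45 and the GINS complex turn the helicase on, polymerase alpha with its primase lays primers, and replication factor C (RFC) places the sliding clamp PCNA. Polymerase epsilon then extends the leading strand, polymerase delta the lagging strand, and FEN1 and LIG1 join the lagging strand pieces. Cyclin E with its kinase CDK2 and the E2F transcription factors drive entry into S phase, and E2F factors act directly on the promoters of many of these genes, which dividing leukemia cells express at high levels.

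Because E2F-regulated promoters are a shared trait of this gene group, the sequences around their start sites were searched. RefSeq promoter windows of 300 bases (GRCh38.p14) were found for 32 of the 36 genes, while MCM4, MCM5, GINS4 and CCNE2 had none in the table used. The E2F-type letters TTTCCCGC, TTTGGCGC, TTTCGCGC or TTTGCCGC, read on both strands, stood in 19 of the 32 windows (59.4%), against 908 of 27305 windows of all genes (3.33%). CCAAT, the letters bound by NF-Y, stood on either strand in 18 of the 32 (56.2%), against 9747 windows of all genes (35.7%). TTTGAA or TTCGAA, the letters of the cell cycle homology region of mitotic genes, stood in 1 of the 32 (3.12%), against 4539 windows of all genes (16.6%). The 32 windows were richer in G and C, with a median of 66.7%, against 58.3% over all windows, and short GC-rich words are more frequent in such sequence. A match is a description of letters and does not show binding. The windows printed here belong to the genes with a RefSeq window whose RNA fell most (POLE2, POLD2 and GINS3) and rose most (POLE and PRIM2) in MOLM13 cells with both agents. They are shown to set promoters of genes that moved in opposite directions side by side, with E2F-type letters and CCAAT or ATTGG in capitals. POLE2 is at chr14:49688165-49688464, minus strand, POLD2 at chr7:44123499-44123798, minus strand, GINS3 at chr16:58392221-58392520, plus strand, POLE at chr12:132687293-132687592, minus strand, and PRIM2 at chr6:57314555-57314854, plus strand.
POLE2: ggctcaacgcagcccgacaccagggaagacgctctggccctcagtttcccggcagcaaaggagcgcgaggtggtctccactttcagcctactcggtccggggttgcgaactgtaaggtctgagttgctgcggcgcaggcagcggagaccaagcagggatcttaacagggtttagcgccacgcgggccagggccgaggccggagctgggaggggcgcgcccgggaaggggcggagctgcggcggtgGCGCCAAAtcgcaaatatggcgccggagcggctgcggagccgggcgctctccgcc
POLD2: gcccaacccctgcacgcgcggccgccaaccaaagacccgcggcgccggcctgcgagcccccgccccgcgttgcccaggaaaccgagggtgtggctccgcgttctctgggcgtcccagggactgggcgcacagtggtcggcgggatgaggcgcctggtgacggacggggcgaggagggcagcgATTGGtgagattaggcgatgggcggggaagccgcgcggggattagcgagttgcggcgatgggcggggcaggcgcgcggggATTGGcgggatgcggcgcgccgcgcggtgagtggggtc
GINS3: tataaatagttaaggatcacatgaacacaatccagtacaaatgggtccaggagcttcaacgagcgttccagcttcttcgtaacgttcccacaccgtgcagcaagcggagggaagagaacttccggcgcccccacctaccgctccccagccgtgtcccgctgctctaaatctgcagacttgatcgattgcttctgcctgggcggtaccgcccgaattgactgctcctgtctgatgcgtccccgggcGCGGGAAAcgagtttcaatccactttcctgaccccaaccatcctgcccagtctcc
POLE: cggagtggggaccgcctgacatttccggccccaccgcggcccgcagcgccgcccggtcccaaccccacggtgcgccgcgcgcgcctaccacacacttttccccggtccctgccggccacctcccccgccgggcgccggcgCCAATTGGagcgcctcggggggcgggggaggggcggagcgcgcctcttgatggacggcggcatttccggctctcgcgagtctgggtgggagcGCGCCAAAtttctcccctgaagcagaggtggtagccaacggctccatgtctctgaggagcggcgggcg
PRIM2: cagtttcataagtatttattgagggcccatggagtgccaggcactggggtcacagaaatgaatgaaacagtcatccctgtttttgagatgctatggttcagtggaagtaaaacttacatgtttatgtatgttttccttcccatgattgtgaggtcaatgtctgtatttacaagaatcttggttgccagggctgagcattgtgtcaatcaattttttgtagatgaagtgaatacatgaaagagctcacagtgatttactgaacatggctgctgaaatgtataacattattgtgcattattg
E2F-type letters stood in the windows of POLE2 and GINS3, whose RNA fell, and in that of POLE, whose RNA rose, beginning at base -5, -5 and -18 from the annotated start. POLD2, which fell, held CCAAT read on the other strand and no E2F-type letters, and PRIM2, which rose, held neither. The table sets the start of POLD2 and of PRIM2 inside the span of the gene and not at its outer end, so other start sites of these 2 genes were not searched.

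The libraries held 19320216 to 23684811 counts in MOLM13, 20730486 to 30090830 in MV4-11 and 49881047 to 59711884 in OCI-AML3. The 36 genes together took 0.692% to 0.729% of the counts in MOLM13, 0.320% to 0.386% in MV4-11 and 0.537% to 0.554% in OCI-AML3, and the lowest count of any of them in any library was 95. All 8 myeloid markers looked up (PTPRC, CD33, SPI1, CEBPA, MPO, LYZ, CSF3R and FLT3) were detected in every library. Transcripts of 4 T cell markers summed to 2.17 to 2.81 CPM (counts scaled to a common library total) with both agents, 1.58 to 1.78 CPM with OTX015 and 18.2 CPM with VTP50469, against 25.9 to 27.7 CPM in MOLM13 controls, with CD3E at or near 0, and their part in the results was not tested. Epithelial and stromal markers, mainly KRT8 and KRT18, summed to 13.4 to 17.3 CPM in MV4-11 controls and 19.2 to 23.3 CPM in MV4-11 with VTP50469. They summed to 0.818 to 1.08 CPM in MOLM13 controls and 0.184 to 0.256 CPM in OCI-AML3 controls, and their part in the results was not tested. Mitochondrial transcripts took 5.74% and 6.01% of counts with both agents, against 4.36% and 4.83% in MOLM13 controls. In MV4-11 they took 6.23% and 6.68% with VTP50469, against 10.3% and 5.60% in the controls, so that control replicate 1 stood apart. Among known targets, MEIS1 fell with VTP50469 in MOLM13 (log2 fold change -2.60), MV4-11 (-1.86) and OCI-AML3 (-0.49), and HEXIM1, a marker of BET inhibition, rose with OTX015 in MOLM13 (2.11). With both agents in MOLM13, MEIS1 was -0.50 against control and 2.10 against VTP50469, so it was less reduced than with VTP50469 as a single agent. HEXIM1 was also called higher with VTP50469 in MV4-11 (0.77) and OCI-AML3 (0.33), where no BET inhibitor was given. Values are relative to the whole transcriptome, since no spike-in RNA was in the table, and in bulk samples fewer cells in S phase and less RNA per cell cannot be told apart.

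Co-treatment with VTP50469 and OTX015 shifted single replication genes in both directions, and left most of the machinery within the fold limit. In MOLM13 cells with both agents 11 of the 36 genes were lower than in control cells and 3 were higher, called where edgeR gave an adjusted p below 0.05 and a log2 fold change of 0.32 or more in size, the fold limit of the study. POLE2, POLD2 and GINS3 had the largest falls, and CCNE2, POLE and PRIM2 rose. Among all 14360 genes tested, 30.9% were called lower and 31.2% higher in the same comparison, so the share of replication genes called lower (30.6%) was near that of all genes, and the share called higher (8.33%) was below it. The median log2 fold change of the 36 genes was -0.15, against 0.02 over all genes tested. At an unadjusted p below 0.05 24 of the 36 were lower and 6 were higher, where 37.5% and 38% of all genes tested were.

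**Figure D1:**
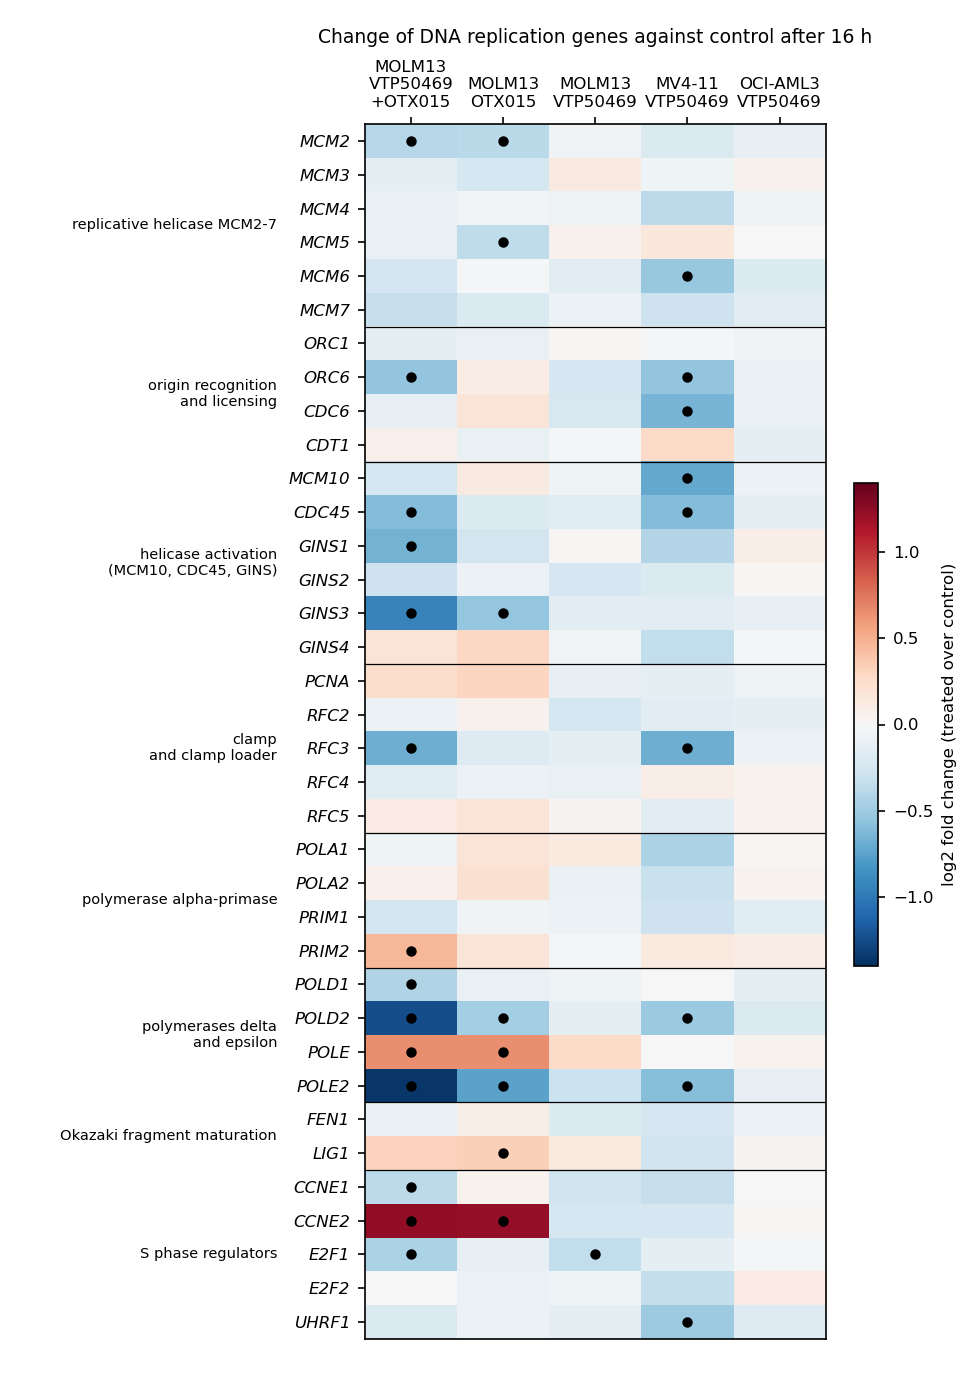
Log2 fold change of each of the 36 DNA replication genes (rows, grouped by role) against untreated control cells of the same line in 5 treatments (columns), with a dot where the change was called by adjusted p and fold limit. The column of MOLM13 cells with both agents holds 14 dots, those of MV4-11 with VTP50469, MOLM13 with OTX015 and MOLM13 with VTP50469 hold 9, 8 and 1, and the OCI-AML3 column holds none.

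With OTX015 as a single agent 5 of the 36 genes fell in MOLM13 cells and 3 rose, against 24.7% and 23.5% of all genes tested, and the median of the 36 was -0.07. Those that fell were POLE2, GINS3, POLD2, MCM2 and MCM5, and those that rose were CCNE2, POLE and LIG1. With VTP50469 as a single agent only E2F1 fell, and no member was called higher (edgeR), against 5.24% and 8.06% of all genes tested. DESeq2 gave the same 0 higher and 1 lower, limma called POLE higher as well, and at an unadjusted p below 0.05 17 members were lower and 4 were higher, where 21.6% and 19.9% of all genes tested were. The members' median with VTP50469 was -0.09, against 0.01 over all genes tested. Without the fold limit 15 members were lower and 4 were higher with VTP50469, against 17.6% and 15.1% of all genes tested, so changes of the 36 genes in this treatment were small, between -0.35 and 0.26 on the log2 scale. The number lower was 2 without control replicate 1, 3 without control replicate 2, 2 without VTP50469 replicate 1 and 0 without VTP50469 replicate 2. The 3 treatments were compared with the same 2 control libraries. Of all genes called with VTP50469, 60.6% were higher, and this share was 74.4% without scaling factors, 47.6% in a fit of all 18 libraries and 50% with DESeq2.

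**Figure D2:**
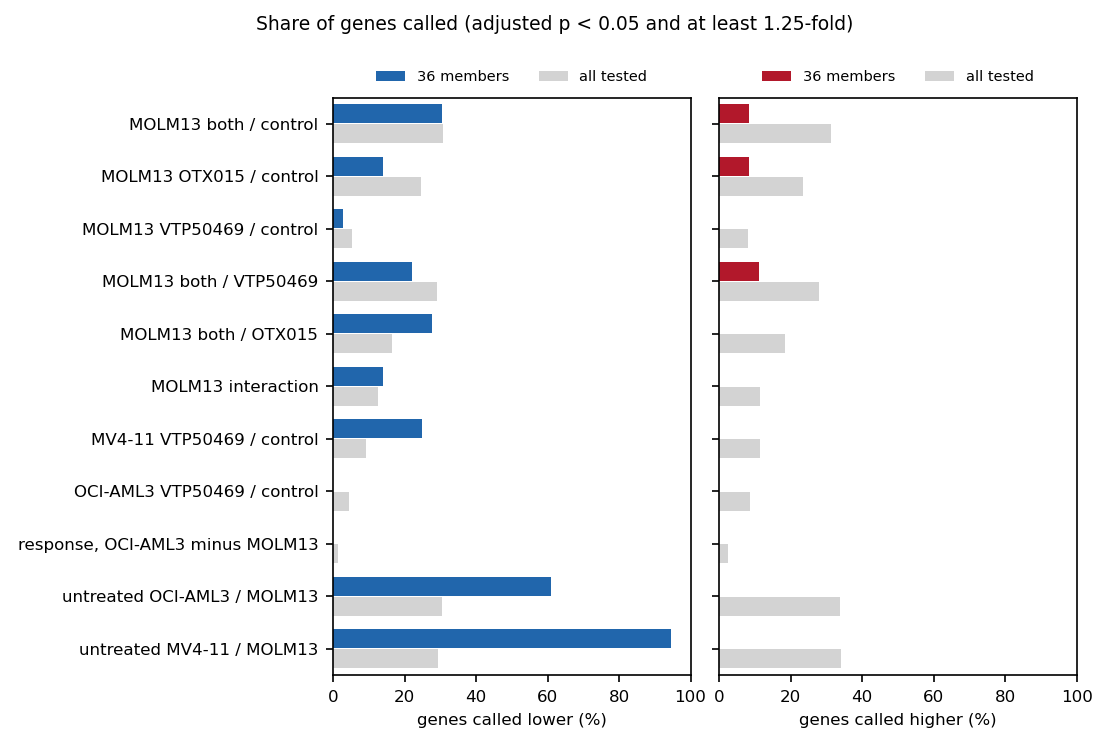
Share of the 36 replication genes (coloured bars) and of all tested genes (grey bars) called lower (left) and called higher (right) in each of the 11 comparisons, in percent. The coloured bars for lower calls are longest in untreated MV4-11 (94.4%) and OCI-AML3 (61.1%) set against untreated MOLM13, and no coloured bar for higher calls passes the grey bar beside it.

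The replicative polymerases held the largest falls and a rise side by side. POLE2 (chr14:49643555-49688214 on GRCh38), the second subunit of polymerase epsilon, had 8.49 and 9.17 CPM with both agents, 13.5 and 13.6 CPM with OTX015, 19.2 and 17.9 CPM with VTP50469, and 23.3 and 22.3 CPM in the controls. The 4 groups did not overlap, and the libraries with both agents were lowest. Its log2 fold change against control was -1.37 ± 0.10 (edgeR, adjusted p = 3.85e-19) with both agents, -0.75 ± 0.09 with OTX015 and -0.30 ± 0.09 with VTP50469, of which the last was under the fold limit. POLD2 (chr7:44114680-44124325), the second subunit of polymerase delta, had 137 and 128 CPM with both agents, 225 and 225 CPM with OTX015, 288 and 283 CPM with VTP50469, and 316 and 311 CPM in the controls. Its groups also stood apart in the same order. With both agents it fell by 1.24 on the log2 scale (SE 0.04; edgeR, adjusted p = 1.01e-35), and with OTX015 its change was -0.48 ± 0.04. POLD1, the catalytic subunit of polymerase delta, had 266 and 245 CPM with both agents, 314 and 323 CPM with OTX015, 329 and 325 CPM with VTP50469, and 342 and 345 CPM in the controls. All 4 groups were separate here too, but the steps were smaller, and only the fall with both agents, -0.42 ± 0.04 (edgeR, adjusted p = 1.59e-14), passed the fold limit.

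POLE (chr12:132623762-132687342), the catalytic subunit of polymerase epsilon and the partner of POLE2, moved the other way. It had 263 and 247 CPM with both agents, 240.2 and 269.6 CPM with OTX015, 194 and 197 CPM with VTP50469, and 158 and 168 CPM in the controls. Libraries with both agents and with OTX015 overlapped, all above those with VTP50469, which were above the controls. The rise was 0.65 ± 0.05 (edgeR, adjusted p = 3.56e-20) with both agents and 0.65 ± 0.05 with OTX015, while the change with VTP50469, 0.26 ± 0.05, was under the fold limit. The 4 polymerase delta and epsilon genes had a median of -0.83 with both agents, the lowest of the 8 roles, with 3 called lower and 1 higher. Reads of POLE2 may include those of the pseudogene STK16P1 inside its span, since it is not known whether strand was used in counting.

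Among the genes that turn the helicase on, 3 of 6 fell with both agents, with a median of -0.45. GINS3 (chr16:58392471-58406147), a subunit of the GINS complex, had 15.1 and 15.5 CPM with both agents, 20.1 and 20.2 CPM with OTX015, 25.9 and 26.5 CPM with VTP50469, and 29.9 and 28.7 CPM in the controls. The 4 groups were separate, and those with both agents were lowest. Its log2 fold change was -0.94 ± 0.08 (edgeR, adjusted p = 1.17e-15) with both agents and -0.54 ± 0.08 with OTX015. GINS1 (chr20:25407673-25448563) had 63.6 and 61.2 CPM with both agents, 87.9 and 77.04 CPM with OTX015, 101 and 97.9 CPM with VTP50469, and 101 and 96.999 CPM in the controls. Its lowest libraries were those with both agents, and those with VTP50469 overlapped the controls. GINS1 fell with both agents (-0.66 ± 0.06 (edgeR, adjusted p = 5e-17)), and its changes with OTX015, -0.26 ± 0.05, and with VTP50469, 0.01 ± 0.05, were not called. CDC45 (chr22:19479466-19520612), which joins the MCM ring to GINS, had 69.2 and 68.2 CPM with both agents, 90.3 and 92.8 CPM with OTX015, 94.8 and 91.3 CPM with VTP50469, and 104 and 104 CPM in the controls. Its libraries with OTX015 and with VTP50469 overlapped between those with both agents and the controls, and the fall with both agents was -0.60 ± 0.05 (edgeR, adjusted p = 9.36e-17). GINS2 (-0.29), MCM10 (-0.25) and GINS4 (0.19) were not called with both agents.

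Of the clamp and clamp loader genes, RFC3 alone was called with both agents. RFC3 (chr13:33818149-33977377), a small subunit of the clamp loader, had 55.9 and 59.8 CPM with both agents, 84.5 and 80.4 CPM with OTX015, 82.2 and 87.7 CPM with VTP50469, and 92.7 and 93.5 CPM in the controls. The libraries with both agents were lowest, those of the single agents overlapped each other, and the controls were highest. It fell by 0.69 on the log2 scale with both agents (SE 0.05; edgeR, adjusted p = 7.95e-18). The other loader subunits had -0.09 (RFC2), -0.17 (RFC4) and 0.12 (RFC5), and the clamp PCNA had 0.24, none of them called. The span of RFC5 overlaps that of WSB2, which fell by 0.57 in the same comparison. PCNA had 633 and 638 CPM with both agents, 669 and 649.8 CPM with OTX015, 497 and 491 CPM with VTP50469, and 541 and 532 CPM in the controls, and the libraries with both agents lay below those with OTX015 and above the rest.

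Among the origin licensing genes and the subunits of the MCM ring, ORC6 and MCM2 were called with both agents in MOLM13 cells, and both fell. ORC6 (chr16:46689659-46698394), the smallest subunit of the origin recognition complex, had 33.5 and 35.6 CPM with both agents, 54.7 and 54.1 CPM with OTX015, 42.7 and 43.5 CPM with VTP50469, and 51.2 and 50.03 CPM in the controls. Levels were lowest with both agents and highest with OTX015. Its log2 fold change was -0.55 ± 0.06 (edgeR, adjusted p = 1.61e-11) with both agents, but 0.10 ± 0.06 with OTX015 and -0.23 ± 0.06 with VTP50469, neither called. The loading factors CDC6 (-0.11) and CDT1 (0.07) and the large origin subunit ORC1 (-0.13) were not called with both agents. Of the 6 ring subunits only MCM2 was called, with 409.9 and 382 CPM with both agents, 401 and 402 CPM with OTX015, 506 and 509 CPM with VTP50469, and 518 and 528 CPM in the controls. The libraries with both agents and with OTX015 overlapped, below the other MOLM13 libraries. MCM2 fell by 0.40 with both agents (edgeR, adjusted p = 1.51e-14), and the change was -0.31 without scaling factors and -0.29 with limma, both under the fold limit. MCM7 had -0.32, just short of the limit, and MCM3, MCM4, MCM5 and MCM6 had -0.14, -0.11, -0.11 and -0.26. MCM5 fell with OTX015 (-0.36 ± 0.04 (edgeR, adjusted p = 2.18e-12)), with 323 and 329.5 CPM against 412 and 424 CPM in the controls, and its change was -0.31 without scaling factors.

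Primase and Okazaki fragment genes held 1 of the 3 rises. PRIM2 (chr6:57221540-57646850), the large primase subunit, had 54.8 and 56.7 CPM with both agents, 48.1 and 43.9 CPM with OTX015, 40.7 and 39.2 CPM with VTP50469, and 39.2 and 41.6 CPM in the controls. Both libraries with the combination were highest, and those with VTP50469 overlapped the controls. It rose by 0.46 ± 0.06 with both agents (edgeR, adjusted p = 2.04e-09), and its changes with OTX015, 0.18 ± 0.06, and VTP50469, -0.02 ± 0.07, were not called. Its span overlaps that of RAB23, which rose by 0.81 with both agents and 0.61 with OTX015, and reads of the overlap cannot be told apart. PRIM1, the catalytic primase subunit, had -0.26, POLA1, the catalytic subunit of polymerase alpha, -0.06, and POLA2 0.07, none called. LIG1, the ligase that seals the lagging strand, had 229 and 205 CPM with both agents, 214 and 224 CPM with OTX015, 188 and 193 CPM with VTP50469, and 173 and 175 CPM in the controls. All treated groups were above the controls, and those with both agents and with OTX015 overlapped. The rise of LIG1 with OTX015, 0.33 ± 0.04 (edgeR, adjusted p = 1.56e-09), was close to the fold limit and was under it in a fit of all 18 libraries (0.31), with DESeq2 (0.32) and without OTX015 replicate 2 (0.30). With both agents its change was 0.32 ± 0.04, not called, and FEN1, the flap endonuclease, had -0.09.

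The S phase regulators split. CCNE2, which encodes cyclin E2, had 48.4 and 49.2 CPM with both agents, 52.03 and 44.97 CPM with OTX015, 17.95 and 16.9 CPM with VTP50469, and 18.8 and 22.5 CPM in the controls. All libraries with OTX015, with or without VTP50469, were above all libraries without it. CCNE2 had the largest rise of the 36 genes, with 1.24 ± 0.08 (edgeR, adjusted p = 1.51e-22) with both agents and 1.23 ± 0.08 with OTX015, while the change with VTP50469 was -0.25 ± 0.09. Its span overlaps those of INTS8, which rose by 0.56 with both agents, and NDUFAF6, which fell by 1.09. The other cyclin E gene, CCNE1 (chr19:29811991-29824312), had 27.5 and 28.3 CPM with both agents, 36.7 and 37.2 CPM with OTX015, 30.4 and 28.8 CPM with VTP50469, and 37.8 and 33.9 CPM in the controls. Levels were lowest with both agents, and libraries with OTX015 lay within the range of the controls. CCNE1 fell by 0.36 with both agents (edgeR, adjusted p = 1.26e-05), and this change was -0.29 without control replicate 1 and -0.27 without scaling factors, both under the fold limit.

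E2F1 (chr20:33675477-33686385), an activating E2F factor, had 55.1 and 48.7 CPM with both agents, 65.5 and 64.98 CPM with OTX015, 57.2 and 53.6 CPM with VTP50469, and 69.2 and 71.6 CPM in the controls. The libraries with both agents and with VTP50469 overlapped, and all 4 lay below those with OTX015, which lay below the controls. E2F1 fell by 0.35 with VTP50469 (SE 0.06; edgeR, adjusted p = 2.44e-06) and by 0.44 with both agents, and its change with OTX015 was -0.11 ± 0.06. The fall with VTP50469 was under the fold limit without VTP50469 replicate 2 (-0.30) and without scaling factors (-0.30). E2F2, a second activating E2F factor, had 0.00, and UHRF1, which brings the maintenance DNA methyltransferase to newly copied DNA, had -0.20 with both agents, neither called.

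**Figure D3:**
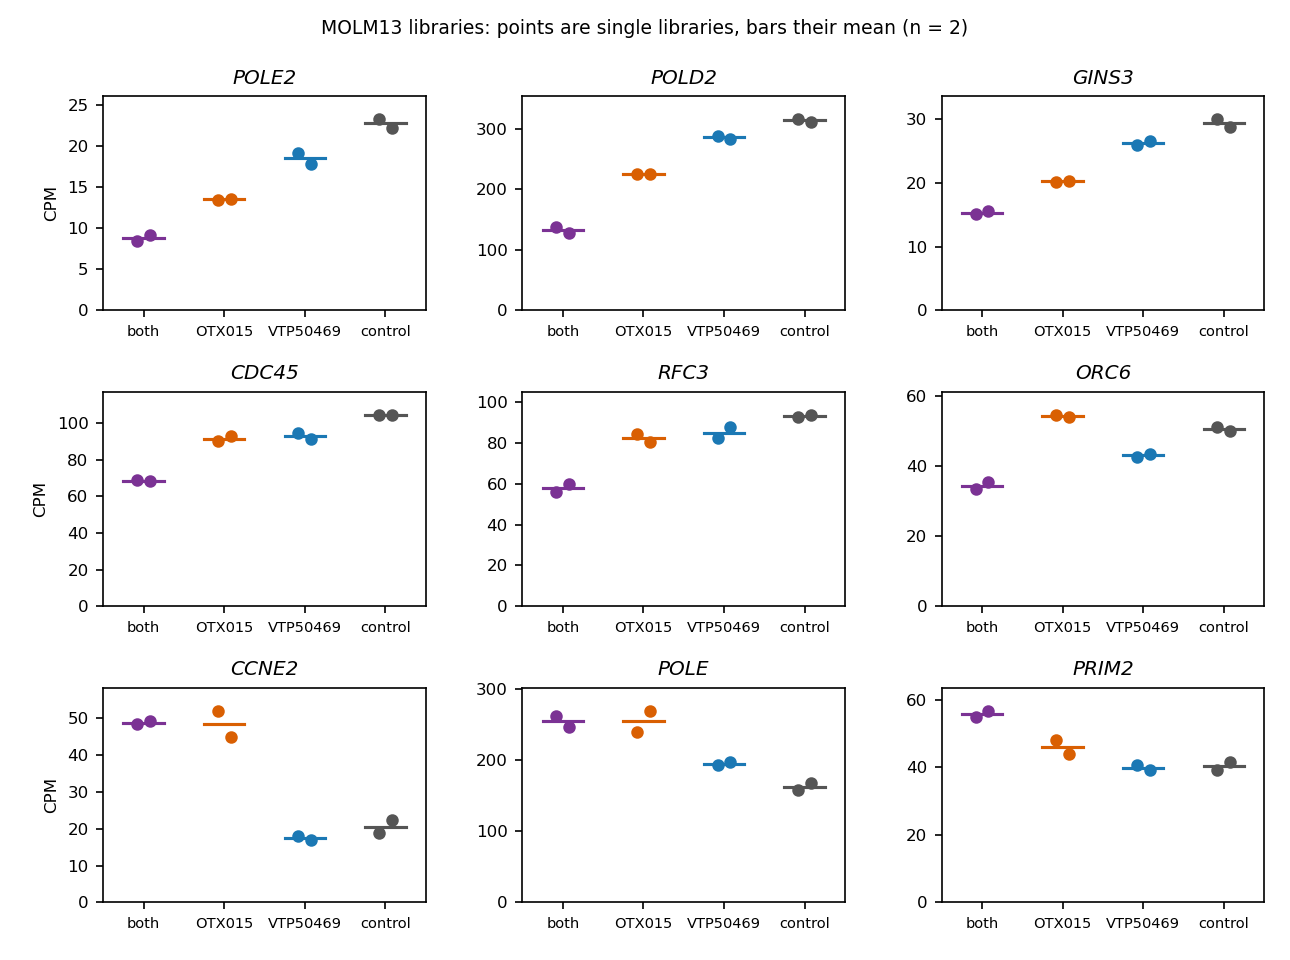
CPM (vertical axes, from 0) of 9 replication genes in MOLM13 cells with both agents, with OTX015, with VTP50469 and in controls, where points are single libraries and bars the mean of 2. POLE2, POLD2 and GINS3 are lowest with both agents, followed by OTX015, VTP50469 and control, without overlap, and CCNE2, POLE and PRIM2 are higher with both agents than in control.

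Each single agent was next set against the combination, to see what the second agent added. Against OTX015, cells with both agents had 10 members lower and none higher (edgeR), where 16.5% of all genes tested were called lower and 18.4% higher. This gave 27.8% of the members lower, with a median of -0.15, against 0.01 over all genes. DESeq2 also called 10 lower and 0 higher, limma 9 and 2, and at an unadjusted p below 0.05 21 members were lower and 4 were higher, where 28.2% and 28.3% of all genes tested were. POLD2 (-0.76 ± 0.04 (edgeR, adjusted p = 8.42e-24)), ORC6 (-0.66 ± 0.06) and POLE2 (-0.61 ± 0.11) had the largest falls. RFC3 (-0.51), CDC45 (-0.41), CCNE1 (-0.41), GINS1 (-0.40), GINS3 (-0.40), MCM10 (-0.38) and E2F1 (-0.33) also fell, so 4 of the 10 were of the 6 helicase activation genes. For ORC6, MCM10 and CCNE1 the libraries with OTX015 had been within or above the control range, and those with both agents were below it. PRIM2 was called higher without OTX015 replicate 1 (0.34). GINS1 was not called without that library (-0.31), nor E2F1 without replicate 2 of both agents (-0.25). E2F1 was also under the fold limit in a fit of all 18 libraries (-0.30), with limma (-0.28) and without scaling factors (-0.28). CCNE2 (0.01), POLE (0.00) and LIG1 (-0.02) did not pass the test in this comparison.

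Against VTP50469, cells with both agents had 8 members lower and 4 higher, where 29% of all genes tested were called lower and 27.9% higher. The median of the members was -0.09, against -0.02 over all genes. CCNE2 (1.49 ± 0.08 (edgeR, adjusted p = 6.48e-26)), PRIM2 (0.48 ± 0.06) and POLE (0.39 ± 0.04) had the largest rises, and PCNA rose by 0.36. POLD2 (-1.11 ± 0.04 (edgeR, adjusted p = 6.57e-33)), POLE2 (-1.07 ± 0.10) and GINS3 (-0.78 ± 0.08) had the largest falls, followed by GINS1 (-0.68), RFC3 (-0.55), CDC45 (-0.44), MCM2 (-0.36) and POLD1 (-0.35). MCM2 and POLD1 were under the fold limit without replicate 2 of both agents (-0.31 and -0.29).

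Whether the combination went beyond the sum of the single agents on the log2 scale was tested as an interaction, which is the change with both agents minus the changes with OTX015 and with VTP50469. Of the 36 genes 5 were called lower and none higher (edgeR), where 12.7% and 11.5% of all genes tested were called, and the median was -0.05, against -0.01. POLD2 had the largest value, -0.63 ± 0.06 (edgeR, adjusted p = 1.12e-13). ORC6 had -0.42 ± 0.09 (edgeR, adjusted p = 9.56e-05), a gene whose change with OTX015 was above 0 and with VTP50469 below 0. GINS1 (-0.41 ± 0.08) and RFC3 (-0.38 ± 0.08) followed, and POLA1 (-0.38 ± 0.08 (edgeR, adjusted p = 6.36e-05)) had 71.5 and 71.3 CPM with both agents, 84.2 and 83.96 CPM with OTX015, 86.03 and 77.97 CPM with VTP50469, and 71.1 and 77.4 CPM in the controls, so that it was above control with each single agent and within the control range with both. Higher calls were 1 with DESeq2 and 2 with limma, and at an unadjusted p below 0.05 12 members were lower and 4 were higher, where 21.7% and 20% of all genes tested were. Of the genes with the largest falls with both agents, POLE2 (-0.32 ± 0.14) and GINS3 (-0.24 ± 0.12) were not called in this test. Both values were below 0, so a change beyond the sum is neither shown nor excluded for them. GINS1 was not called without OTX015 replicate 1 (-0.32), nor POLA1 without control replicate 1 (-0.32) or VTP50469 replicate 1 (-0.30). In a fit of all 18 libraries neither RFC3 (-0.32) nor POLA1 (-0.32) was called. The higher calls were 2 without control replicate 1 or without OTX015 replicate 1, and 1 without VTP50469 replicate 1 or replicate 1 of both agents. Of all genes called, 47.6% were higher, and 58.8% were in a fit of all 18 libraries.

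VTP50469 was also given to MV4-11 cells, at 1000 nM, and there 9 of the 36 genes fell. No member was called higher by edgeR, DESeq2 or limma, and at an unadjusted p below 0.05 12 were lower and 0 were higher, where 16.1% and 18% of all genes tested were. Among all 15486 genes tested 9.34% were called lower and 11.4% higher, so the share of members called lower, 25%, was above that of all genes in this fit. The members' median was -0.28, against 0.00 over all genes. MCM10 (chr10:13161558-13211110), which helps to turn the helicase on, had 27.3 and 30.99 CPM with VTP50469, against 49.6 and 46.4 CPM in the controls. Its groups did not overlap, and the change was -0.72 ± 0.16 (edgeR, adjusted p = 0.00432), the largest fall and the only call kept when any of the 4 libraries was left out. RFC3 had 19.4 and 20.2 CPM with VTP50469, against 28.7 and 34.6 CPM in the controls. Both treated libraries were below both controls, with -0.68 ± 0.17 (edgeR, adjusted p = 0.00935). CDC6 (chr17:40287879-40304657), a loader of the MCM ring, had 25.9 and 26.5 CPM with VTP50469, against 42.2 and 39.9 CPM in the controls. Here too the groups stood apart, and the change was -0.65 ± 0.16 (edgeR, adjusted p = 0.00837).

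The other MV4-11 falls were of licensing, helicase and polymerase genes and of UHRF1. CDC45 had 37.4 and 30.7 CPM with VTP50469, against 54.6 and 49.2 CPM in the controls, and its change was -0.61 ± 0.16. ORC6 had 19.4 and 18.1 CPM with VTP50469, against 27.6 and 27.4 CPM in the controls, with -0.55 ± 0.17, and POLE2 had 8.79 and 7.86 CPM with VTP50469, against 13.6 and 11.6 CPM in the controls, with -0.59 ± 0.19. No treated library of these genes reached a control library. MCM6, a subunit of the ring, had -0.53, POLD2 had -0.52, and UHRF1 had -0.51. The adjusted p of these 9 genes (edgeR) lay between 0.00432 and 0.038. The number called lower was 3 without control replicate 1, the library with 10.3% mitochondrial counts, 5 without control replicate 2, 5 without VTP50469 replicate 1 and 6 without VTP50469 replicate 2. It was 16 in a fit of all 18 libraries, where the spread is shared with the other lines. The share of all genes called in these fits is not given here. Whether the members' share stayed above it without control replicate 1 cannot be read from these counts. POLE and POLD1, at 0.00 and -0.01, and ORC1, at -0.01, did not pass the test, and CDT1, at 0.27, had the highest value.

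In OCI-AML3 cells, with 500 nM VTP50469, no member was called in either direction by edgeR, DESeq2 or limma, where 4.53% of all 16611 genes tested were called lower and 8.58% higher. At an unadjusted p below 0.05 19 members were lower and 3 were higher, where 23.2% and 23% of all genes tested were. Without the fold limit 17 were lower and 2 higher, against 19.3% and 18.9% of all genes. POLD2 had 154, 157 and 157 CPM with VTP50469, against 183, 179 and 175 CPM in the controls. The groups did not overlap, and its change, -0.20 ± 0.03 (edgeR, adjusted p = 6.4e-05), had the lowest value of the 36. MCM6 (-0.19 ± 0.02), UHRF1 (-0.18 ± 0.03), PRIM1 (-0.17 ± 0.03) and MCM7 (-0.15 ± 0.02) came next. The highest values were those of E2F2, 0.12 ± 0.06, and PRIM2, 0.11 ± 0.04. The median was -0.07, against 0.00 over all genes. Of all genes called 65.5% were higher, and this share was 76.5% without scaling factors and 50.8% with limma.

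The response of OCI-AML3 cells minus that of MOLM13 cells, at the same dose, was tested in a fit of all 18 libraries. No member was called (edgeR, DESeq2 and limma), where 2.6% of all 17597 genes tested were called higher and 1.49% lower, and 4 members had an unadjusted p below 0.05, all higher, where 9.23% of all genes tested were higher and 7.02% lower. E2F1 had the largest difference, 0.35 ± 0.11 (edgeR, adjusted p = 0.1). E2F1 had 57.1, 56.1 and 58.6 CPM with VTP50469 in OCI-AML3, against 60.5, 57.5 and 56.6 CPM in its controls, so the groups overlapped there, whereas in MOLM13 they had not. MV4-11 cells received another dose, and no difference from them was tested.

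**Figure D4:**
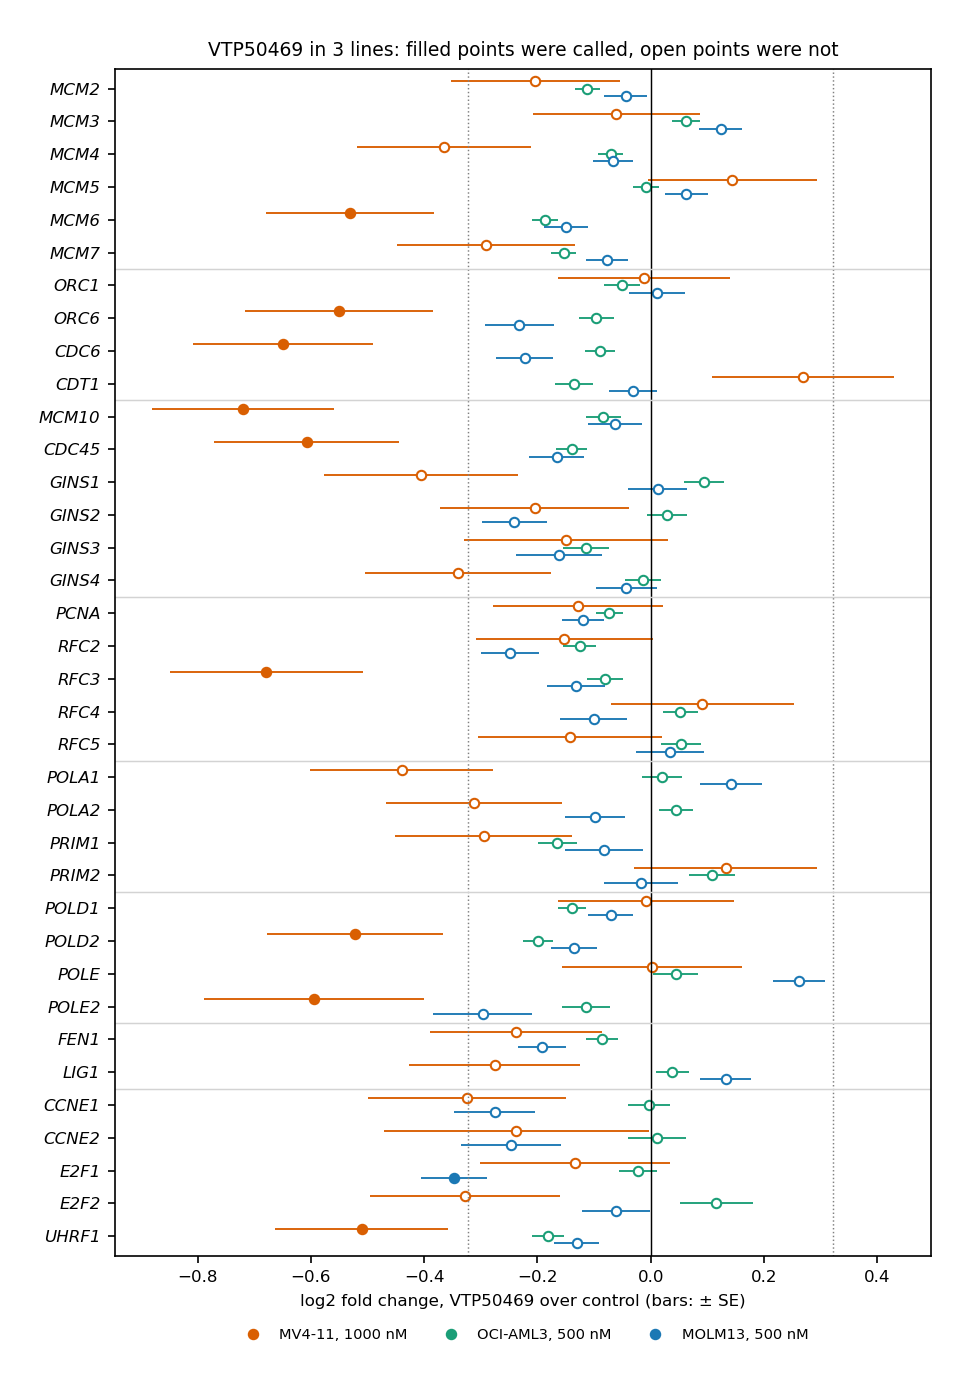
Log2 fold change (horizontal axis, bars ± SE) of each of the 36 genes with VTP50469 against control in MV4-11 (1000 nM), OCI-AML3 (500 nM) and MOLM13 (500 nM), filled where called, with dotted lines at the fold limit. The 9 filled points below the limit in MV4-11 have wide bars, E2F1 is the only filled point of MOLM13, and every OCI-AML3 point lies between -0.20 and 0.12.

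Untreated MV4-11 and OCI-AML3 cells were each set against untreated MOLM13 cells in a fit of all 18 libraries. Untreated MV4-11 cells had 34 of the 36 genes lower than untreated MOLM13 cells and none higher (edgeR and DESeq2), where 29.3% of all 17597 genes tested were called lower and 34.2% higher. Limma called 33 lower and 0 higher, with POLA2 (-0.31) under the fold limit. At an unadjusted p below 0.05 35 were lower and 1 was higher, where 33.7% and 38.1% of all genes tested were. The median was -1.07, against 0.06 over all genes tested. GINS1 had 23.9 and 26.9 CPM in MV4-11, against 107 and 104 CPM in MOLM13 (scaled over all libraries), with -2.04 ± 0.08 (edgeR, adjusted p = 1.61e-14). CCNE2 had 4.79 and 5.99 CPM, against 19.9 and 24.03 CPM, with -2.00 ± 0.13, and RFC3 had 28.6 and 33.8 CPM, against 98.4 and 100.1 CPM, with -1.66 ± 0.07. In these 3 genes the lines were far apart. PRIM1 (0.19 ± 0.07) and CDT1 (-0.25 ± 0.08) were the members not called. Lower levels in MV4-11 were not particular to the 36 genes. Of 10 mitosis genes 10 were lower (median -0.96), and of 19 further fork genes 14 were lower and 1 was higher. Of 10 replication-coupled chromatin genes 8 were lower and 0 higher, of 19 E2F, RB and S phase entry genes 12 and 1, and of 14 further licensing and initiation genes 7 and 3. Without scaling factors the median of all genes moved to 0.21, and 34 members were lower and 1 was higher.

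Untreated OCI-AML3 cells had 22 of the 36 genes lower than untreated MOLM13 cells, where 30.5% of all genes tested were called lower and 33.7% higher. No member was called higher by edgeR or DESeq2, limma called 1 higher and 20 lower, and at an unadjusted p below 0.05 29 were lower and 3 were higher, where 35% and 38.2% of all genes tested were. The median was -0.39, against 0.05 over all genes tested. E2F2 had 8.25, 8.90 and 9.04 CPM in OCI-AML3, against 55.05 and 58.5 CPM in MOLM13, with -2.70 ± 0.07 (edgeR, adjusted p = 2.37e-17). LIG1 had 67.7, 67.8 and 69.1 CPM, against 184 and 187 CPM, with -1.44 ± 0.06, and POLD1 had 147, 147 and 146 CPM, against 363 and 369 CPM, with -1.32 ± 0.06. The OCI-AML3 libraries lay below both MOLM13 libraries in all 3 genes. MCM6 (0.12 ± 0.05), MCM10 (0.14 ± 0.06), RFC2 (0.16 ± 0.07) and PRIM1 (0.08 ± 0.06) had values above 0 and were not called. Without scaling factors 15 members were lower and 2 were higher, while the median of all genes moved to 0.24.

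**Figure D5:**
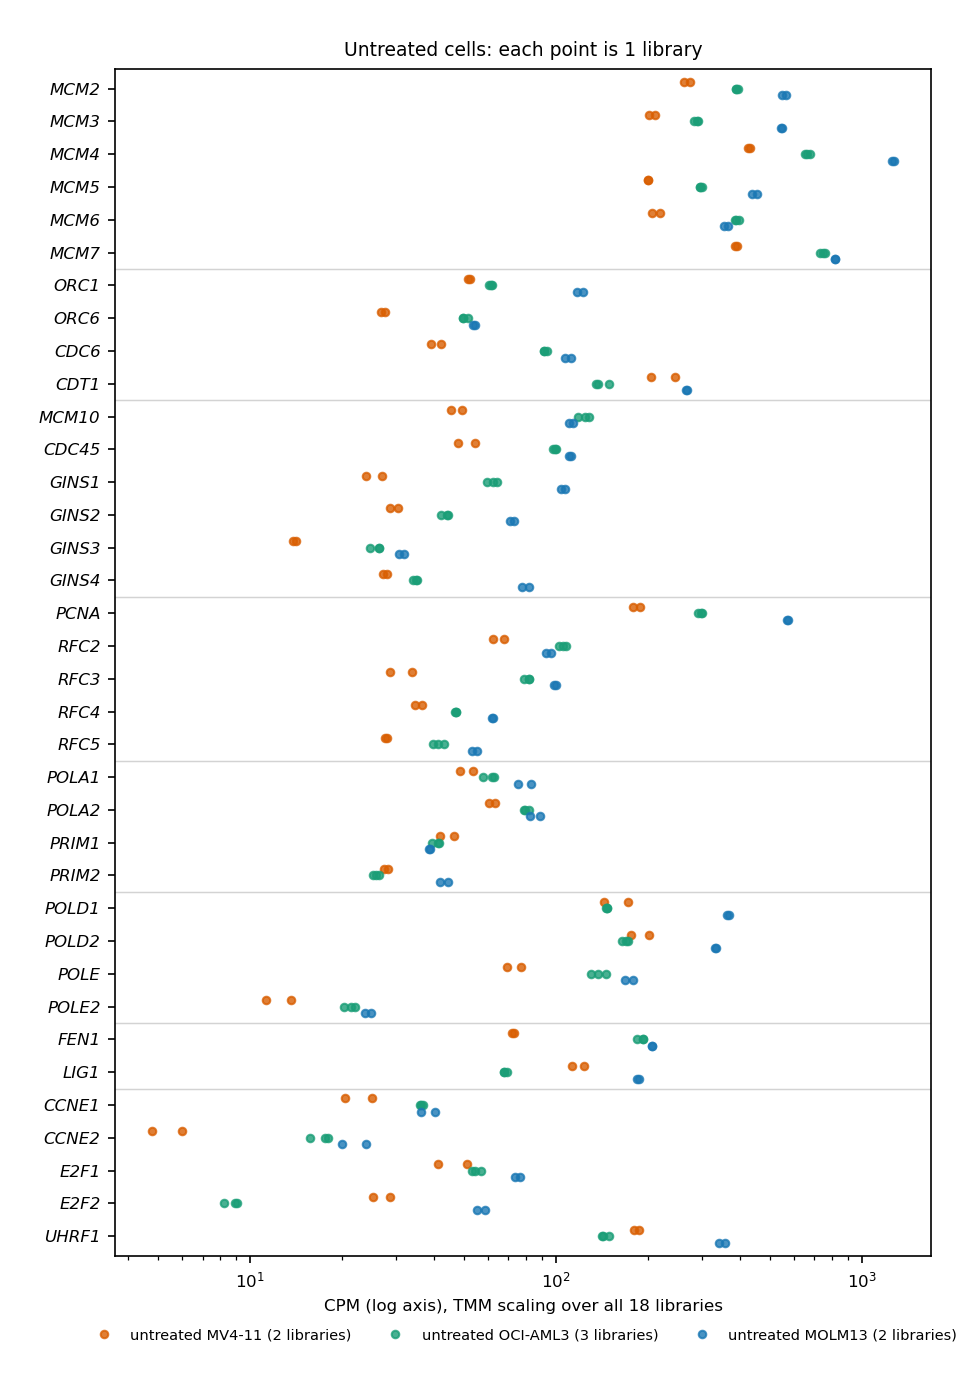
CPM on a log axis of the 36 genes in untreated MV4-11, OCI-AML3 and MOLM13 libraries, each point 1 library, with genes grouped by role. MV4-11 points lie left of the MOLM13 points in every row but that of PRIM1, and E2F2 and LIG1 are lowest in OCI-AML3.

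Other genes of the pathway, from lists drawn up by function, moved in both directions too. Of 14 further licensing and initiation genes, 3 were higher and 1 was lower in MOLM13 cells with both agents. ORC4 (0.66) and DONSON (0.59) were highest, and ORC5 (-0.72) was the gene that fell. Of 19 further fork genes 7 rose and 5 fell. POLD4 (1.37), the small subunit of polymerase delta, and TIMELESS (0.62), of the fork protection complex, rose most, while POLE3 (-0.98), a histone-fold subunit of polymerase epsilon, and TIPIN (-0.83), the partner of TIMELESS, fell most. Polymerase delta and epsilon genes thus stood on both sides, as did the pair TIMELESS and TIPIN. Of 10 replication-coupled chromatin genes 3 rose, led by the histone chaperone ASF1B (0.86) and the remodeller HELLS (0.78), and SSRP1 (-0.81), a subunit of the FACT chaperone, fell. Each list is set against 31.2% and 30.9% of all genes tested, called higher and lower.

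Among 19 genes of E2F, RB and S phase entry, 6 rose and 6 fell with both agents in MOLM13. The repressive factor E2F7 (1.18) and the CDK inhibitor CDKN1A (0.95) rose most, and CDC25A (-1.24), a phosphatase that activates CDK2, and E2F5 (-1.24) fell most. Of 10 mitosis genes 4 fell, led by UBE2C (-1.36) and PLK1 (-0.76), and MKI67 (1.19), the proliferation antigen Ki-67, rose, with 0.93 with OTX015 and 0.54 with VTP50469. With VTP50469 in MV4-11, 3 of the 14 licensing genes fell, led by DBF4 (-0.92), the activator of the CDC7 kinase, and ORC5 (-0.65), where 9.34% of all genes tested were called lower and 11.4% higher. The fork genes TIPIN (-0.75) and CLSPN (-0.59), the chromatin genes ASF1A (-0.79) and HELLS (-0.67), and CDC25A (-0.79) and DTL (-0.76) also fell there, while the fork gene POLD4 (1.04) rose. Of the 19 fork genes 2 were lower and 1 was higher in MV4-11, and of the 10 chromatin genes 3 and 0. Of the 19 E2F, RB and S phase entry genes 3 were lower and 2 were higher. None of the 10 mitosis genes was called there (median -0.01). With VTP50469 in OCI-AML3 no gene of the fork list was called by edgeR, while at an unadjusted p below 0.05 5 of the 19 were lower and 3 were higher, where 23.2% and 23% of all genes tested were. Of the 19 E2F, RB and S phase entry genes 2 were lower and 1 was higher there, against 4.53% and 8.58% of all genes tested. CDKN2C, an inhibitor of CDK4 and CDK6, fell by 1.65 in OCI-AML3, and in MOLM13 its change with VTP50469 was -0.96. With both agents in MOLM13 CDKN2C had 94.2 and 89.96 CPM, against 90.98 and 95.4 CPM in the controls.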

How the data were processed

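Total RNA of 18 libraries was sequenced, and the authors deposited raw whole-number counts per gene, without normalization. STAR and hg38 stand in the submitters' processing notes, while the methods of the study describe TopHat2 and Cufflinks2. For the counting tool, strand setting and annotation nothing is given in the sources used here. By RefSeq positions, 17 of the 36 genes overlap another gene, 7 of them a protein coding gene. Symbols were found for 40894 of 58037 IDs, and the other IDs held 0.377% of counts. The quasi-likelihood test of edgeR 4.0.16 (R 4.3.3) was applied to these counts, with TMM scaling and filterByExpr, each line in its own fit and lines together in a fit of 18 libraries. A call needed a p below 0.05 after Benjamini-Hochberg adjustment over all genes tested and a change at the fold limit of the study, 0.32 on the log2 scale. CPM are TMM-scaled, and the ± values beside log2 fold changes are standard errors. Alternatives were other scaling, DESeq2 1.42.0, limma 3.58.1, no filter, no fold limit, a replicate block and each library left out. The fit was tested on simulated data, in which all planted changes were well above the fold limit, so changes near the limit were not covered. Values in every library are given for the largest called rises and falls of a comparison and for a gene of each role, and of the other lists the largest called changes are named. Genes and lists were chosen with earlier results of these data known. MOLM13 and OCI-AML3 libraries are described as biologic replicates. For MV4-11 this is not stated, so its p-values may measure technical spread only. Its replicates still varied more (coefficient of variation 13.2%) than those of MOLM13 (3.06%) and OCI-AML3 (3.15%). The small p-values in MOLM13 rest on 2 libraries per group with little spread between them.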

Additional observations from a re-analysis of the deposited data

Results flagged for a closer look

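In MOLM13 cells the change with both agents differed from the sum of the changes with the single agents for 5 genes by an interaction test (edgeR): POLD2 (log2 -0.63), ORC6 (-0.42), GINS1 (-0.41), RFC3 (-0.38) and POLA1 (-0.38). Among all genes tested 12.7% were called lower and 11.5% higher in this test. The share of the 36 genes called lower, 13.9%, was near that of all genes. RFC3 and POLA1 were not called in a fit of all 18 libraries (both -0.32). With VTP50469 every MV4-11 library moved opposite to every MOLM13 library for MCM3 (-0.06 in MV4-11), CDT1 (0.27), RFC5 (-0.14), POLA1 (-0.44) and LIG1 (-0.28). For MCM3 and CDT1, with the same MV4-11 values of -0.06 and 0.27, every MV4-11 library also moved opposite to every OCI-AML3 library. These differences from MV4-11 were not tested, the doses differ, and none of these MV4-11 values was called. In MV4-11, MCM3 had 206.1 and 195.9 CPM with VTP50469, against 212.1 and 207.1 CPM in the controls, so its groups barely stood apart. The share of all genes that moved in opposite directions between lines was not counted, so no result about the group is drawn from these genes.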

How the results depend on the processing

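Of 115 called pairs of gene and comparison, 87 were kept in every alternative and 0 reversed. No fold limit gave 4 higher and 15 lower with VTP50469, 11 and 12 with OTX015, and 6 and 23 with both agents in MOLM13. It gave 11 and 17 for both agents against VTP50469, 4 and 21 against OTX015, 3 and 9 for the interaction, 2 and 17 in OCI-AML3, and 3 and 1 higher in untreated OCI-AML3 and MV4-11. Under this rule 15.1% of all genes tested were higher and 17.6% lower with VTP50469 in MOLM13. In OCI-AML3 18.9% were higher and 19.3% lower. For the other comparisons the share of all genes without the fold limit is not given here. Their counts show how calls depend on the setting, and no result about the group is drawn from them. Without scaling factors 0 were lower with VTP50469, 5 higher with OTX015, 5 higher with both agents, 1 higher against OTX015, and 2 and 1 higher in untreated OCI-AML3 and MV4-11. With limma 1 was higher with VTP50469, 5 with both agents, 2 against OTX015, 2 for the interaction and 1 in untreated OCI-AML3, where MCM7 turned to 0.32. With DESeq2 or RLE factors 1 was higher for the interaction. The fit of all 18 libraries gave 2 lower with VTP50469, 1 higher and 3 lower for the interaction and 16 lower in MV4-11. Without the filter 2 were lower with VTP50469. The cause was not tested.

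With single libraries left out, lower calls ran from 0 to 3 with VTP50469 in MOLM13 and from 3 to 6 in MV4-11, and higher calls from 0 to 1 against OTX015 and from 0 to 2 for the interaction. The share of all genes called in these fits is not given here, and no result about the group is drawn from these counts. No clear pairing of libraries by replicate number was seen. For equal numbers, deviations from the group means correlated between -0.045 and 0.043 in MOLM13, at 0.098 in MV4-11 and from 0.005 to 0.034 in OCI-AML3. In OCI-AML3 not every library correlated best with its own number. With 2 or 3 libraries per group, low correlations over all genes cannot exclude a pairing. With the replicate block 10 genes were lower in MV4-11 and every other count was as without it. The spread between replicates was widest in MV4-11, with a coefficient of variation of 13.2%, against 3.06% in MOLM13 and 3.15% in OCI-AML3, which limits the sizes that 4 libraries can show.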
